A study of Mus musculus with 71 samples.

Results

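The comparison described here is that of AKR/J mice kept awake over the first 6 h of the light phase with undisturbed AKR/J mice killed at the same hour. Its members are 6 of the 71 arrays of the series, chosen by their titles: 3 arrays of sleep-deprived AKR/J brain at ZT6 and 3 arrays of AKR/J control brain at ZT6. ZT (zeitgeber time) counts hours from light onset, so that sleep deprivation ran from ZT0 to ZT6, and the dark phase begins at ZT12. The sleep-deprived group was male AKR/J mice 12 to 13 weeks of age, deprived of sleep for 6 h up to ZT6. The control group was male AKR/J mice of the same age, left in their home cages and killed together with the deprived mice. AKR/J is an inbred strain, and no group carried a transgene or an induced mutation. The whole series holds 24 groups, from both conditions at ZT0, ZT6, ZT12 and ZT18 in AKR/J and in 2 further inbred strains, DBA/2J and C57BL/6J. Total RNA of whole brain was measured on Affymetrix arrays, and each array carried RNA pooled in equal amounts from 3 mice, which makes 9 mice and 3 arrays per group. Pooling hides differences between single mice, so that the spread between arrays given here is a spread between pools.

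Sleep need builds up during waking, and in mice, which sleep mostly in the light phase, waking enforced in the morning falls in their usual sleep time. Neurons that fire strongly switch on immediate early genes, a set of transcription factors and synaptic proteins whose mRNAs appear within minutes to hours and whose induction runs through calcium, cAMP and MAP kinase signals. Enforced waking also raises brain metabolism and corticosterone, and protein folding helpers (chaperones) of the cytosol and of the endoplasmic reticulum are a known part of the brain's response to long waking in mice.

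All values are log2 probe set intensities as deposited, so that a difference of 1 is a doubling. A probe set is the group of short probes that reads 1 transcript or several, and names ending in _s_at, _x_at or _a_at mark probe sets whose probes match several transcripts. The 45037 probe sets that are not controls were tested, of which 34945 carry 1 gene symbol. Values of all arrays ran between 2.69 and 14.8, array medians lay between 5.65 and 5.71, and the 6 arrays correlated with each other at 0.9935 to 0.9974 over all probe sets. The root mean square difference between arrays of a group was 0.158 to 0.182 among the sleep-deprived arrays and 0.178 to 0.239 among the controls. Control array 3 was 1 of 6 arrays of the series that stood apart on the bacterial control probe sets: the Dap control averaged 6.59 to 6.86 on these 6 arrays and 7.31 to 7.92 on the other 65. For that reason counts are also given without it. Defining markers of brain cells were high on all 6 arrays: the mean level of 10 neuron markers was 11.76 to 11.84 on sleep-deprived arrays and 11.76 to 11.82 on control arrays, and that of 11 astrocyte markers was 10.19 to 10.26 and 10.15 to 10.20.

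Sleep deprivation up to ZT6 shifted many transcripts by small amounts and a few by much. With a Benjamini-Hochberg adjusted p under 0.05 in limma as the threshold, 1164 of 45037 probe sets (2.58%) changed, 771 of them higher (1.71%) and 393 lower (0.873%) in sleep-deprived brain. They represented 887 named genes, of which 580 rose and 310 fell, with Agpat5, Fbxo3 and Map3k7 counted in both directions through different probe sets. The median size of a change that passed was 0.35, against a median standard error of 0.10 over all probe sets. Changes of at least 1 were found for 20 probe sets that rose and 2 that fell, and changes of at least 0.5 for 136 and 38. The 3 sleep-deprived arrays all lay above the 3 controls for 755 of the 771 probe sets that rose, and all below for 384 of the 393 that fell. Over all probe sets the same separation was seen for 9.21% upward and 9.65% downward. The count depended on single arrays. It was 552 without sleep-deprived array 2, 613 without control array 3 and 701 without sleep-deprived array 1, and it lay between 821 and 1018 when any of the other 3 arrays was left out. No probe set that passed changed its direction in these fits, and 343 (259 higher, 84 lower) passed in all 6 of them. The fit borrows its estimate of spread from all 71 arrays, and when the 6 arrays of this comparison were fitted alone 164 probe sets passed, 124 higher and 40 lower. Counts from that smaller fit are given beside most of the gene lists.

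The probe set with the largest rise read Homer1, a scaffold of the postsynaptic density that tethers group 1 metabotropic glutamate receptors and whose short form is an immediate early product. Its level on 1436387_at was 10.15, 10.29 and 10.03 in sleep-deprived brain, against 8.10, 8.0 and 7.63 in controls. The groups were far apart, and the rise was 2.25 ± 0.11 (SE), or 4.76-fold (adjusted p = 4.3e-22). Homer1 has 5 more probe sets, and they differed widely in size. A second probe set, 1425671_at, read 5.33, 5.03 and 5.55 in sleep-deprived brain and 4.49, 4.07 and 4.21 in controls, a rise of 1.05 ± 0.14 (adjusted p = 5.1e-07). The probe set 1437363_at read 10.72, 10.76 and 10.70 in sleep-deprived brain, against 10.46, 10.39 and 10.43 in controls. That is a rise of 0.30 ± 0.06 (adjusted p = 0.002), small but with no overlap between the groups. The rise on 1425710_a_at was 0.41 ± 0.10 (adjusted p = 0.01), which did not pass without control array 1 or sleep-deprived array 3. The differences on 1421768_a_at (0.30) and 1439662_at (0.15) did not pass. Which Homer1 transcript each probe set reads was not analysed here.

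**Figure D1:**
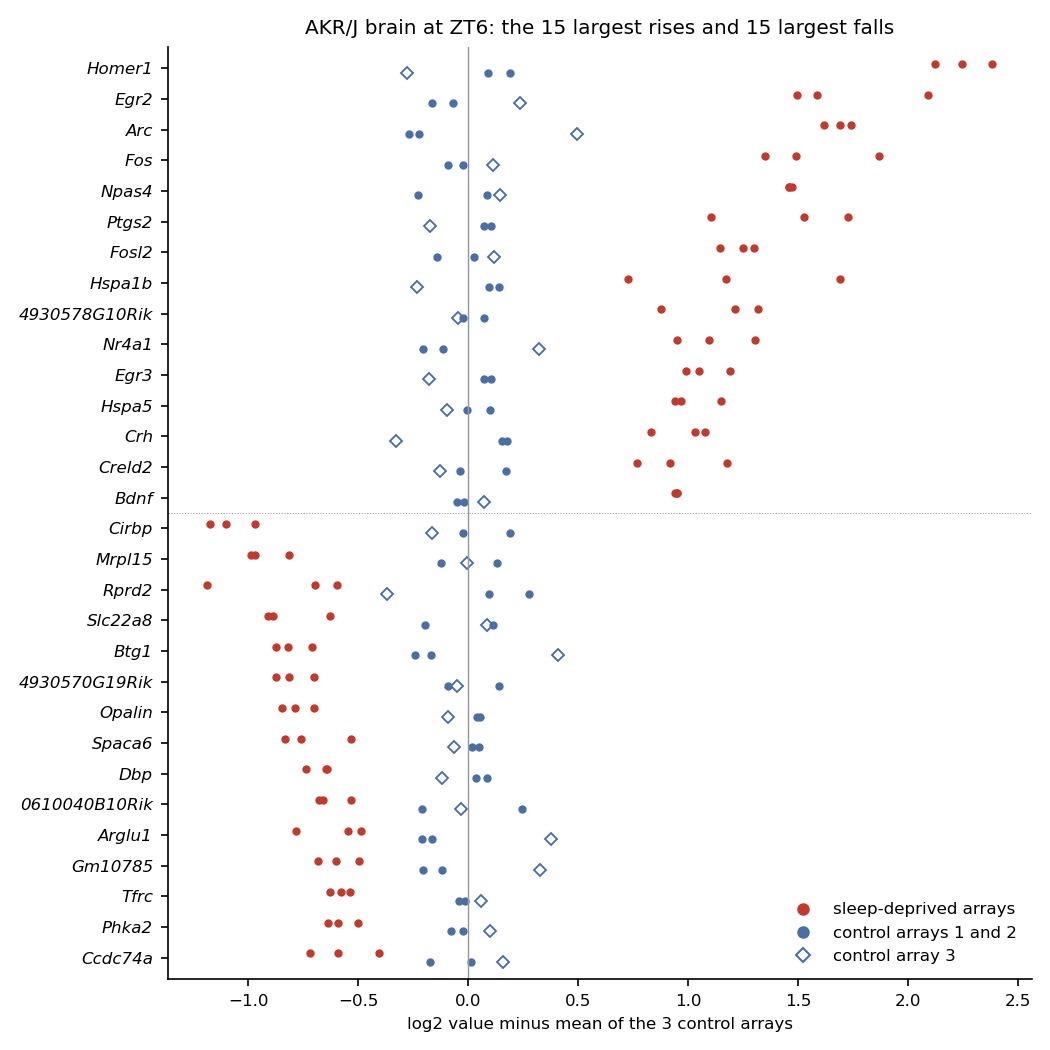
Each row is 1 of the 15 genes with the largest rises or 1 of the 15 with the largest falls; the horizontal axis is the log2 level of an array minus the mean of the 3 controls, with red dots for the 3 sleep-deprived arrays, blue dots for control arrays 1 and 2 and an open diamond for control array 3. The sleep-deprived arrays of Homer1 lie farthest to the right, and the diamond of Btg1, Arglu1 and Gm10785 lies apart from the other 2 controls.

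Among transcription factors of the immediate early response, 15 of 25 listed genes rose, where 1.71% of all probe sets did, and none fell. The median difference was 0.36 over the 25, against -0.01 over all probe sets, and with the 6 arrays fitted alone 10 rose. The strongest were the zinc finger factors of the Egr family, the AP-1 subunits Fos and Fosl2, and Npas4, a neuronal factor switched on by calcium entry. Egr2 read 6.73, 6.14 and 6.23 in sleep-deprived brain, against 4.57, 4.47 and 4.88 in controls, and rose by 1.73 ± 0.18 (adjusted p = 1.4e-09). Fos read 9.24, 8.86 and 8.72 in sleep-deprived brain, against 7.28, 7.35 and 7.48 in controls, and rose by 1.57 ± 0.16 (adjusted p = 6.2e-10). In both genes the lowest deprived array stood more than 1 unit above the highest control. Npas4 had deprived arrays close to each other and a wider control group, with 6.69, 6.70 and 6.69 in sleep-deprived brain, against 5.0, 5.32 and 5.38 in controls (1.46 ± 0.15, adjusted p = 2.6e-10). Fosl2 read 7.90, 7.95 and 7.79 in sleep-deprived brain, against 6.50, 6.67 and 6.76 in controls (1.23 ± 0.12, adjusted p = 3.1e-10). Egr3 read 10.42, 10.56 and 10.36 in sleep-deprived brain, against 9.44, 9.47 and 9.19 in controls (1.08 ± 0.09, adjusted p = 1.1e-12). The groups were separate for each of them.

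The orphan nuclear receptors of the Nr4a family did not move together. Nr4a1 read 9.60, 9.39 and 9.25 in sleep-deprived brain, against 8.18, 8.09 and 8.62 in controls, a rise of 1.12 ± 0.13 (adjusted p = 2.1e-08). Nr4a3 rose by 0.65 ± 0.09 (adjusted p = 1.5e-06), with 8.92, 8.89 and 8.66 in sleep-deprived brain and 8.18, 8.06 and 8.27 in controls. Nr4a2 differed by 0.20 ± 0.09, which did not pass (adjusted p = 0.28), and its groups touched, with a lowest deprived array of 8.16 and a highest control of 8.21. Egr1, the Egr factor most used as a marker of neuronal activity, read 11.31, 11.28 and 11.19 in sleep-deprived brain, against 10.51, 10.39 and 11.00 in controls (0.63 ± 0.13, adjusted p = 0.0015). Its control array 3 lay closer to the deprived arrays than to the other controls. The other members that rose were Crem, a cAMP-responsive repressor (0.69), Junb, an AP-1 subunit (0.66), Klf10 (0.55), Ier5 (0.50), Egr4 (0.36), Bhlhe40 (0.32) and Srf, the serum response factor itself (0.25). Another AP-1 subunit, Jun, went the other way without passing: it read 8.36, 8.35 and 8.40 in sleep-deprived brain, against 8.45, 8.48 and 8.76 in controls (-0.19 ± 0.07, adjusted p = 0.18). Fosb, a further AP-1 subunit, read 4.37, 4.60 and 4.45 in sleep-deprived brain and 4.43, 4.41 and 4.22 in controls, and did not pass (0.12 ± 0.13, adjusted p = 0.77). Without any 1 of the 6 arrays, 13 or 14 members of the list passed, all of them higher.

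Of 29 listed effectors regulated by neuronal activity, some of them synaptic or secreted, 13 rose (1.71% of all probe sets) and none fell. All 29 differences pointed upward, and their median was 0.28. With the 6 arrays fitted alone 5 of the 29 rose. Arc, which controls the removal of AMPA receptors from the synapse, read 8.54, 8.59 and 8.47 in sleep-deprived brain, against 6.63, 6.58 and 7.34 in controls. It rose by 1.68 ± 0.18 (adjusted p = 2.1e-09), with even deprived arrays and a control array 3 well above the other controls. Bdnf, the neurotrophin that acts on TrkB receptors, read 8.26, 8.25 and 8.26 in sleep-deprived brain, against 7.26, 7.29 and 7.38 in controls (0.95 ± 0.10, adjusted p = 7.4e-10), with little spread in either group. Ptgs2, the inducible cyclooxygenase that makes the prostaglandin precursor, read 6.66, 6.47 and 6.04 in sleep-deprived brain, against 5.04, 5.01 and 4.76 in controls (1.45 ± 0.17, adjusted p = 3.4e-08). A second Ptgs2 probe set, 1417263_at, differed by 0.51 ± 0.16 and did not pass (adjusted p = 0.062), though its 3 deprived arrays (5.82, 5.41 and 5.56) lay above its 3 controls (5.21, 5.04 and 4.99). No other of the 11 prostaglandin genes listed passed, where 2.58% of all probe sets did. Vgf, a secreted neuropeptide precursor, read 9.60, 9.68 and 9.67 in sleep-deprived brain, against 9.06, 9.04 and 9.26 in controls (0.53 ± 0.11, adjusted p = 0.002). Scg2, a granin of secretory vesicles, changed little but evenly, with 11.69, 11.71 and 11.66 in sleep-deprived brain and 11.39, 11.41 and 11.26 in controls (0.34 ± 0.05, adjusted p = 1.5e-05). Sgk1, a kinase induced by both activity and glucocorticoids, read 10.20, 10.22 and 10.31 in sleep-deprived brain, against 9.68, 9.41 and 9.31 in controls (0.78 ± 0.20, adjusted p = 0.015). Tiparp (0.45), Rgs2 (0.32), Cdkn1a (0.56), Trib1 (0.36), Gadd45g (0.34), Errfi1 (0.28) and Homer1 on 1437363_at made up the rest. Leaving out 1 array gave 10 to 13 genes. Nptx2, a neuronal pentraxin that gathers AMPA receptors, did not pass on either probe set (0.38 ± 0.19, adjusted p = 0.36 and 0.29 ± 0.13, adjusted p = 0.26).

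Transcripts of this kind are switched on through short promoter elements, so the windows of 250 bases before to 50 after each annotated start (RefSeq, GRCm38.p6) were searched on both strands. The serum response element (CArG box), bound by serum response factor, stood in 5 of the 14 windows of the 10 immediate early genes that rose and have a window (those of Egr2 and Srf), and in 1.629% of all 32851 windows. A gene with several starts has several windows, which can overlap. The cAMP response element TGACGTCA stood in 2 of the 24 windows of 10 effector genes (Scg2 and Errfi1), against 1.79% of all windows. Its core TGACG, which lies inside the full element, stood in 10 of the 14 windows of immediate early genes and 7 of the 24 windows of effector genes, against 20.812% of all windows. It also stood in 12 of 24 windows of the cytosolic chaperone genes that rose. Windows of Egr2 and Scg2 are shown because they hold these elements near the start site: capitals mark the CArG box at chr10:67537316-67537615, plus strand, 72 bases before the start of Egr2, and TGACGTCA at chr1:79439977-79440276, minus strand, 68 bases before the start of Scg2. A match of letters is a description of the window and no measurement of binding.
Egr2: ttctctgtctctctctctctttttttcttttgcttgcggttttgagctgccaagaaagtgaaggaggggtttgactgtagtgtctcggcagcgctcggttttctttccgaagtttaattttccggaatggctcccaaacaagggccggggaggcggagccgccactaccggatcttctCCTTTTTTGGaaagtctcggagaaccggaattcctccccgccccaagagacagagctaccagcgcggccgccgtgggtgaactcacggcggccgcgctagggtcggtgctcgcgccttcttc
Scg2: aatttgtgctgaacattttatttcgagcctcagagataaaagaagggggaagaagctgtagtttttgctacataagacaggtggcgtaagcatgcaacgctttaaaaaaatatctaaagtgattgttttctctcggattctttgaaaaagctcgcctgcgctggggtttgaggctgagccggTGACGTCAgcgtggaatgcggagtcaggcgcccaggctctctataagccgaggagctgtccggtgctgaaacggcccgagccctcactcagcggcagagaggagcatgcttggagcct

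Genes that damp the MAP kinase cascade rose with the immediate early genes it drives. Of 14 listed phosphatases and feedback inhibitors, 8 rose (1.71% of all probe sets) and none fell, with a median of 0.28, and with the 6 arrays fitted alone 4 rose. Dusp1, a nuclear phosphatase of MAP kinases, read 9.70, 9.41 and 9.45 in sleep-deprived brain, against 8.67, 8.68 and 8.92 in controls (0.77 ± 0.10, adjusted p = 4.2e-07). Dusp6, the cytosolic phosphatase of ERK, read 8.70, 8.61 and 8.58 in sleep-deprived brain, against 7.87, 7.90 and 8.02 in controls (0.70 ± 0.08, adjusted p = 2.9e-08). The groups were clear of each other in both genes. Dusp4, another nuclear phosphatase, read 6.07, 6.43 and 6.06 in sleep-deprived brain, against 5.31, 5.36 and 5.33 in controls (0.85 ± 0.13, adjusted p = 4.7e-06), and Spred1, an inhibitor of Ras signalling, rose by 0.62 ± 0.07 (adjusted p = 2.4e-08). Dusp5 (0.43), Spry4 (0.36), Spry2 (0.27) and Dusp14 (0.24) completed the group. The count was 5 without control array 3, sleep-deprived array 1 or sleep-deprived array 2, and 6 to 8 without any of the others.

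Chaperones of the cytosol rose as a broad, mostly modest group. Of 38 genes listed for heat shock proteins or their cochaperones, 19 passed, all of them higher, against 1.71% of all probe sets that rose, 34 differences pointed upward and the median was 0.23. With the 6 arrays fitted alone 3 of the 38 passed. The inducible Hsp70 gene Hspa1b had the largest change and the widest spread: on 1427127_x_at it read 7.93, 8.45 and 7.48 in sleep-deprived brain, against 6.85, 6.89 and 6.52 in controls (1.20 ± 0.22, adjusted p = 0.00027). On 1452318_a_at it read 8.97, 9.44 and 8.37 in sleep-deprived brain, against 7.96, 7.80 and 7.57 in controls (1.15 ± 0.23, adjusted p = 0.00089). Sleep-deprived array 2 was the highest and array 3 the lowest on both, and since Hspa1b and its neighbour Hspa1a are near copies, the probe sets cannot be ascribed to Hspa1b alone. Chordc1, a cochaperone of Hsp90, read 9.73, 9.80 and 9.63 in sleep-deprived brain, against 9.09, 9.06 and 8.82 in controls (0.73 ± 0.08, adjusted p = 8.9e-09). Hsph1, the Hsp110 that exchanges nucleotide on Hsp70, read 11.18, 11.21 and 11.09 in sleep-deprived brain, against 10.66, 10.66 and 10.74 in controls (0.47 ± 0.07, adjusted p = 2.8e-06). The Hsp40 partners Dnajb5 (0.52), Dnajb1 (0.46), Dnaja4 (0.38), Dnaja1 (0.35) and Dnajb4 (0.32) rose too. So did the cochaperones of Hsp90 named Stip1 (0.39), Fkbp5 (0.38), Ahsa2 (0.35), Fkbp4 (0.34) and Ahsa1 (0.28), while Hsp90aa1, the inducible Hsp90 itself, rose by 0.21. Hspa1a (0.57), the constitutive Hsp70 gene Hspa8 (0.31), the Hsp110 relatives Hspa4l (0.28) and Hspa4 (0.26) and the small heat shock protein Cryab (0.26) completed the 19. The small heat shock protein Hspb1 read 9.05, 9.22 and 8.82 in sleep-deprived brain and 8.19, 8.32 and 8.55 in controls, but its difference of 0.68 ± 0.24 did not pass (adjusted p = 0.13). Without control array 3 or sleep-deprived array 2 the list had 12 genes that rose, and without any of the other arrays 15 to 17.

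The endoplasmic reticulum, where secreted and membrane proteins fold, showed rises across its main folding machines. Of 28 listed chaperones and folding enzymes, 13 rose (1.71% of all probe sets) and none fell, with a median of 0.23. Without any 1 array 12 or 13 passed, and with the 6 arrays fitted alone 5 passed. Hspa5 (BiP), the Hsp70 of this compartment, read 11.85, 12.03 and 11.82 in sleep-deprived brain, against 10.98, 10.88 and 10.78 in controls. Its rise of 1.02 ± 0.07 had the smallest p after Homer1 among the 30 genes with the largest changes (adjusted p = 2.4e-15). Creld2, a folding factor of the endoplasmic reticulum, read 7.93, 8.19 and 7.78 in sleep-deprived brain, against 7.18, 6.97 and 6.88 in controls (0.95 ± 0.08, adjusted p = 5.5e-12). Manf, a secreted survival factor that binds BiP, read 10.34, 10.47 and 10.23 in sleep-deprived brain, against 9.57, 9.54 and 9.68 in controls (0.75 ± 0.08, adjusted p = 6.6e-10), and the disulfide isomerase Pdia6 rose by 0.75 ± 0.08 (adjusted p = 1e-09). Sdf2l1, a partner of BiP in this compartment, rose by 0.91 ± 0.16 (adjusted p = 0.00018), with 7.07, 7.36 and 6.74 in sleep-deprived brain and 6.24, 6.37 and 5.83 in controls. Calr (0.57), Pdia3 (0.52), Hsp90b1 (0.49), Pdia4 (0.42), Dnajb11 (0.41), Dnajc3 (0.41), Derl2 (0.40) and Herpud1 (0.31) followed. Only for Pdia4 among the 13 did the groups overlap.

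Of 17 listed sensors and effectors of the unfolded protein response, which stand upstream of these chaperones, 1 rose (1.71% of all probe sets) and none fell, with a median of 0.04. It was Xbp1, the transcription factor whose mRNA is spliced by the sensor Ire1: on 1437223_s_at it read 11.23, 11.25 and 11.12 in sleep-deprived brain, against 10.53, 10.51 and 10.23 in controls (0.78 ± 0.08, adjusted p = 4.9e-10). Atf4, the factor of the integrated stress response, read 10.15, 10.20 and 10.14 in sleep-deprived brain and 10.03, 10.06 and 9.96 in controls, a difference of 0.15 ± 0.05 that did not pass (adjusted p = 0.11). Its target Ddit3 differed by 0.11 ± 0.05 (adjusted p = 0.27). These arrays do not report splicing of Xbp1.

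Windows of the chaperone genes were searched in the same way. In both searches, list members that did not pass were not counted apart. The shares therefore cannot set the members that rose against the rest of their lists. The endoplasmic reticulum stress element, searched as CCAAT followed after any 9 bases by CCACG, stood in 6 of the 13 windows of the 12 genes that rose and have a window (Hspa5, Creld2, Pdia6, Calr, Hsp90b1 and Dnajc3), and in 0.119% of all windows. The heat shock element, searched as 3 blocks of alternating GAA and TTC with any 2 bases between blocks, stood in 3 of the 24 windows of 16 cytosolic chaperone genes (Chordc1 and Hsph1), and in 0.603% of all windows. The windows of Hspa5, Creld2 and Chordc1 are shown with these letters in capitals. Those of Hspa5 lie 65 bases before the start (chr2:34771840-34772139, plus strand), those of Creld2 lie 126 bases before the start and read on the other strand (chr15:88819396-88819695, plus strand), and those of Chordc1 join 3 overlapping matches that begin 4 bases before the start (chr9:18292017-18292316, plus strand).
Hspa5: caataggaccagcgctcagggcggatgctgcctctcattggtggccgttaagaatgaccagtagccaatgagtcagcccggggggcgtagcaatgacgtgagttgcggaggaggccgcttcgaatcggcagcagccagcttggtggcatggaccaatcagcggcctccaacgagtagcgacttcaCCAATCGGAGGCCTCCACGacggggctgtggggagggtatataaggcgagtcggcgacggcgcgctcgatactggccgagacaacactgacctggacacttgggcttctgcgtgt
Creld2: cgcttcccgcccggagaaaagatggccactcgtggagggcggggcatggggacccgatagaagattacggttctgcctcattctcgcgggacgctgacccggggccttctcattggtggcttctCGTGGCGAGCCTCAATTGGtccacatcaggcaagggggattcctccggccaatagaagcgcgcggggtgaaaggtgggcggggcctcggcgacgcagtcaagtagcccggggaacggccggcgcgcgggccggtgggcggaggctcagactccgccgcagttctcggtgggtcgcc
Chordc1: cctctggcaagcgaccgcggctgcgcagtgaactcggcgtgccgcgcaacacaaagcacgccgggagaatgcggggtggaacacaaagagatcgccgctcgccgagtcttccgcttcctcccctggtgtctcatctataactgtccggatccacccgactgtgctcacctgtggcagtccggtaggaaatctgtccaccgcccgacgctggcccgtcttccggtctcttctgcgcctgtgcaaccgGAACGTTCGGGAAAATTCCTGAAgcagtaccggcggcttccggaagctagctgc

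**Figure D2:**
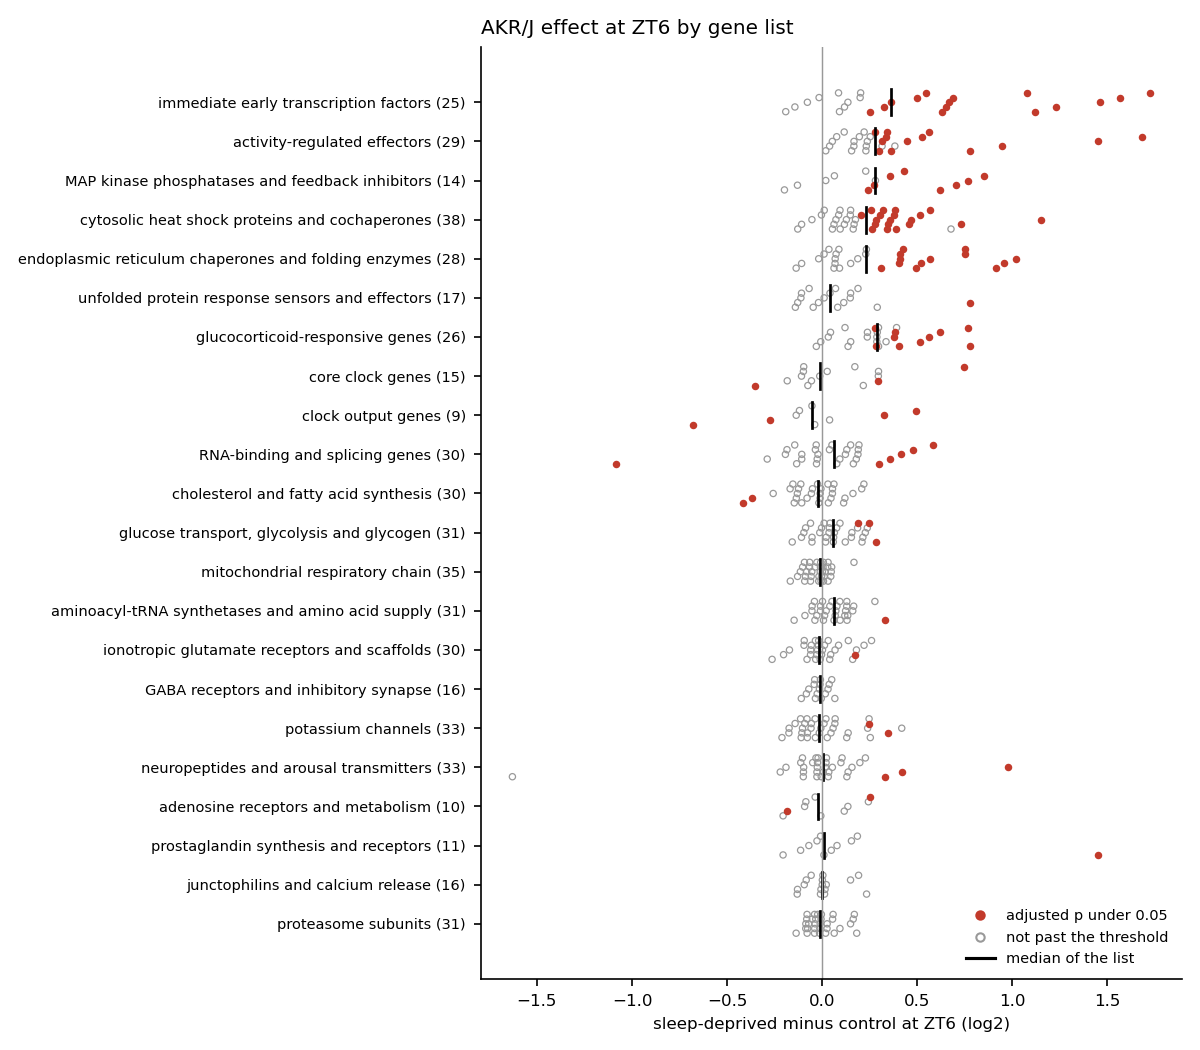
Each row is a pathway list and each point 1 measured gene of it; the horizontal axis is the log2 difference of sleep-deprived minus control brain, filled points passed the threshold and the black bar is the median of the list. The immediate early, effector, MAP kinase, chaperone and glucocorticoid lists have medians of 0.23 to 0.36, and the mitochondrial, GABA and proteasome lists have none past the threshold.

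Of 26 listed glucocorticoid-responsive genes, 10 rose (1.71% of all probe sets) and none fell, with a median of 0.29, and with the 6 arrays fitted alone 4 rose. Zbtb16, a zinc finger repressor, read 8.82, 8.95 and 8.82 in sleep-deprived brain, against 8.25, 8.26 and 8.20 in controls (0.62 ± 0.11, adjusted p = 0.00021). Mertk, a phagocytic receptor of glia, rose by 0.51 ± 0.10 (adjusted p = 0.0007), Bcl6, a transcriptional repressor, by 0.40 ± 0.07 (adjusted p = 0.00035) and Tsc22d3 (GILZ) by 0.38 ± 0.09 (adjusted p = 0.0099). Fkbp5, the immunophilin that slows the receptor, read 8.20, 8.17 and 8.32 in sleep-deprived brain, against 7.90, 7.85 and 7.79 in controls (0.38 ± 0.10, adjusted p = 0.026). The groups did not overlap for any of these. Dusp1, Sgk1, Errfi1 and Cdkn1a belong to the activity lists as well, and Fkbp5 to the cytosolic chaperone list, so these counts share genes. Without sleep-deprived array 2 or 3 the count was 6, and without any of the others 7 to 10. Crh, the hypothalamic peptide that starts the corticosterone response and that is also made in cortical interneurons, read 7.76, 7.81 and 7.56 in sleep-deprived brain, against 6.88, 6.90 and 6.40 in controls (0.98 ± 0.11, adjusted p = 1e-08).

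Only 2 other of the 33 listed neuropeptide and arousal genes passed, both higher, where 1.71% of all probe sets rose. Nts, neurotensin, read 7.56, 7.60 and 7.52 in sleep-deprived brain, against 7.08, 7.21 and 7.13 in controls (0.42 ± 0.07, adjusted p = 6.5e-05). Vip, the vasoactive intestinal peptide of cortical interneurons and of the suprachiasmatic nucleus, read 9.15, 9.19 and 9.09 in sleep-deprived brain, against 8.86, 8.85 and 8.74 in controls (0.33 ± 0.05, adjusted p = 4e-05). Hypocretin (Hcrt), the arousal peptide of the lateral hypothalamus, read 6.83, 6.85 and 6.86 in sleep-deprived brain and 6.75, 6.83 and 6.56 in controls, a difference of 0.13 ± 0.09 (adjusted p = 0.55). Hormone genes of the pituitary split the arrays inside each group. Prl, prolactin, read 9.92, 4.71 and 4.98 in sleep-deprived brain and 4.68, 10.09 and 10.14 in controls, and Pomc read 10.88, 6.25 and 6.12 in sleep-deprived brain and 6.06, 11.60 and 10.47 in controls. None of 7 pituitary genes passed. Their mean level ran between 5.01 and 8.41 on sleep-deprived arrays and between 5.04 and 8.72 on control arrays.

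Among falling genes the largest change was that of Cirbp, the cold-inducible RNA-binding protein whose mRNA follows body temperature. It read 7.24, 7.17 and 7.37 in sleep-deprived brain, against 8.32, 8.53 and 8.18 in controls, and fell by 1.08 on the log2 scale (SE 0.12, adjusted p = 2.1e-09). All 3 controls lay well above the highest deprived array. Cirbp was the only 1 of 30 listed RNA-binding and splicing genes that fell, where 0.873% of all probe sets fell and 1.71% rose. The splicing factors Tra2a (0.58 ± 0.08, adjusted p = 2.6e-07), Srsf6 (0.48 ± 0.07, adjusted p = 1.8e-06), Srsf10 (0.41 ± 0.10, adjusted p = 0.013) and Prpf38b (0.36 ± 0.06, adjusted p = 2.8e-05) rose, as did the nuclear noncoding RNA Malat1 (0.30 ± 0.07, adjusted p = 0.008), and the median of the list was 0.06. With the 6 arrays fitted alone 2 rose and 1 fell. Arglu1, a splicing cofactor, fell on 1433598_at with 8.11, 7.87 and 8.16 in sleep-deprived brain and 8.44, 8.49 and 9.03 in controls (-0.61 ± 0.17, adjusted p = 0.041). That call was lost without control array 3, whose value was the highest, and without any of the deprived arrays.

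Opalin, a membrane protein of oligodendrocytes, read 8.15, 8.06 and 8.0 in sleep-deprived brain, against 8.90, 8.89 and 8.76 in controls (-0.78 ± 0.10, adjusted p = 1.4e-07). Aspa, the oligodendrocyte enzyme that splits N-acetylaspartate, read 7.88, 7.95 and 7.82 in sleep-deprived brain, against 8.32, 8.35 and 8.38 in controls (-0.47 ± 0.08, adjusted p = 4.4e-05). These were the 2 that fell among 17 oligodendrocyte and myelin markers, while 1, the small heat shock protein Cryab, rose by 0.26 ± 0.07 (adjusted p = 0.043). Over all probe sets 0.873% fell and 1.71% rose. The median of the 17 was -0.10, and the 3 deprived arrays lay below the 3 controls for 9 of them, as they did for 9.65% of all probe sets. Structural myelin genes did not pass. Mbp, for myelin basic protein, read 13.77, 13.80 and 13.79 in sleep-deprived brain and 13.80, 13.79 and 13.81 in controls, and Mag, for an adhesion protein of myelin, read 9.70, 9.68 and 9.67 in sleep-deprived brain and 9.81, 9.78 and 9.80 in controls (-0.12 ± 0.06, adjusted p = 0.36). The mean level of the 17 markers was 9.55 to 9.63 on deprived arrays and 9.71 to 9.72 on control arrays. In whole brain RNA, fewer cells of a type and less RNA per cell cannot be told apart.

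Of 16 endothelial and pericyte markers, 1 fell (0.873% of all probe sets did) and none rose. It was Tfrc, the transferrin receptor that carries iron into cells and across brain vessels, with 9.10, 9.05 and 9.14 in sleep-deprived brain and 9.66, 9.63 and 9.73 in controls (-0.58 ± 0.08, adjusted p = 1.4e-06). Slc22a8, the organic anion transporter OAT3 of brain barriers, fell on 1435418_at, with 5.92, 5.63 and 5.66 in sleep-deprived brain and 6.35, 6.66 and 6.63 in controls (-0.81 ± 0.12, adjusted p = 5e-06). Its second probe set, 1416966_at, differed by -0.20 ± 0.08 and did not pass (adjusted p = 0.23). Mrpl15, of the large mitochondrial ribosome subunit, fell on the probe set 1430798_x_at, with 4.55, 4.38 and 4.40 in sleep-deprived brain and 5.24, 5.49 and 5.36 in controls (-0.92 ± 0.12, adjusted p = 2.4e-07). Rprd2, a partner of RNA polymerase II, read 4.38, 3.89 and 4.48 in sleep-deprived brain and 5.35, 5.17 and 4.71 in controls (-0.83 ± 0.13, adjusted p = 2.8e-05). Spaca6, a sperm protein of fertilisation, fell on an _s_at probe set (-0.71 ± 0.12, adjusted p = 6e-05), and the clone-named transcripts 4930570G19Rik (-0.80 ± 0.13, adjusted p = 2.2e-05) and 0610040B10Rik (-0.62 ± 0.13, adjusted p = 0.0018) fell as well. The deprived arrays of Mrpl15 lay below its controls, and so did those of Rprd2. Phka2, a regulatory subunit of phosphorylase kinase, fell by 0.58 (SE 0.11, adjusted p = 0.00077) and Ccdc74a by 0.57 (SE 0.08, adjusted p = 1.3e-06). Btg1, an antiproliferative factor, read 6.14, 6.25 and 6.09 in sleep-deprived brain and 6.79, 6.72 and 7.37 in controls (-0.80 ± 0.18, adjusted p = 0.006). Its call, and that of Gm10785 (-0.59 ± 0.12, adjusted p = 0.00083), were lost when control array 3 was left out (adjusted p = 0.14 and 0.054). With Arglu1 these were the 3 of the 30 largest changes that did not pass in every fit with 1 array left out.

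Clock genes were changed singly. Of 15 core clock genes 2 rose and 1 fell, with a median of -0.01, where 1.71% of all probe sets rose and 0.873% fell. Per2, a repressor of the clock with its own response to waking, read 6.93, 7.25 and 6.95 in sleep-deprived brain, against 6.37, 6.11 and 6.41 in controls (0.75 ± 0.10, adjusted p = 8.8e-07). Arntl (Bmal1), the activator of the loop, rose by 0.29 ± 0.06 (adjusted p = 0.0026). Per1, the paralog of Per2, read 7.81, 7.87 and 7.82 in sleep-deprived brain and 7.42, 7.17 and 8.01 in controls, where the control arrays spread on both sides of the deprived ones, and its difference of 0.30 ± 0.16 did not pass (adjusted p = 0.4). Ciart, a clock repressor, fell by 0.35 (SE 0.10, adjusted p = 0.042), a call that was lost without any 1 of the 6 arrays. Of 9 clock output genes 2 rose and 2 fell, against the same shares of all probe sets. Dbp, a PAR domain factor driven by the clock, read 9.57, 9.48 and 9.57 in sleep-deprived brain, against 10.30, 10.25 and 10.10 in controls (-0.68 ± 0.09, adjusted p = 1.7e-06). Nfil3, which opposes Dbp at the same DNA sites, read 6.45, 6.57 and 6.35 in sleep-deprived brain, against 5.91, 6.07 and 5.91 in controls, a rise of 0.49 ± 0.09 (adjusted p = 0.00021). Thus the factor that activates and the one that represses these sites changed in opposite directions, with no overlap between the groups in either. Bhlhe40 rose by 0.32 ± 0.07 (adjusted p = 0.0033). The deubiquitinase gene Usp2 fell by 0.27 (SE 0.08, adjusted p = 0.032) on 1417169_at, a call lost without any 1 array except control array 1. Another Usp2 probe set, 1417168_a_at, which the list does not count, fell by 0.52 (SE 0.08, adjusted p = 5e-06). With the 6 arrays fitted alone 1 core clock gene rose, and of the output genes 1 rose and 1 fell.

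Lists of housekeeping and transmission genes are to be read against the 2.58% of all probe sets that passed. The lists take the probe set of highest mean of each gene. With that choice made for every gene, 758 of 18193 symbols passed, which is a larger share. Either share comes to few genes in lists of this length. None of 35 genes of the mitochondrial respiratory chain passed (median -0.01), none of 31 proteasome subunits (median -0.01) and none of 16 genes of GABA receptors and the inhibitory synapse (median -0.01). Of 30 glutamate receptor and scaffold genes 1 passed, Dlg1 (0.17 ± 0.05, adjusted p = 0.035), a call lost without any 1 array. None of 16 junctophilin and calcium release genes passed on the probe set chosen for the list. Jph3, the junctophilin of neurons, differed by -0.01 on 1418161_at and rose by 0.32 ± 0.08 on 1443724_at (adjusted p = 0.024), a rise that was lost without control array 1 or 3 or sleep-deprived array 1 or 2. Of 31 genes of glucose transport and glycolysis 3 rose: Slc2a1, the glucose transporter of brain vessels and astrocytes (0.28 ± 0.08, adjusted p = 0.024), Ppp1r3c, a glycogen targeting subunit (0.25 ± 0.06, adjusted p = 0.0058), and Pfkp, a phosphofructokinase (0.19 ± 0.05, adjusted p = 0.016). That count was 0 without control array 2 or sleep-deprived array 2 and 4 without control array 1. Of 30 genes of cholesterol and fatty acid synthesis, Insig1 (-0.37 ± 0.10, adjusted p = 0.021), which holds the sterol sensor in the endoplasmic reticulum, and the lanosterol synthase Lss (-0.42 ± 0.11, adjusted p = 0.024) fell, and neither passed without sleep-deprived array 3. Of 33 potassium channel genes, Kcnv1 (0.35 ± 0.08, adjusted p = 0.0067) and Kcnk1 (0.25 ± 0.07, adjusted p = 0.023) rose, with none left without control array 1 or sleep-deprived array 2. Of 31 genes of tRNA charging and amino acid supply 1 rose, the transporter Slc38a2 (0.33 ± 0.06, adjusted p = 0.00076). Among 10 adenosine genes, Adal rose (0.25 ± 0.06, adjusted p = 0.015) and Adk, the kinase that clears adenosine, fell on an _x_at probe set (-0.19 ± 0.05, adjusted p = 0.041), and neither passed without control array 2 or 3 or sleep-deprived array 1. With the 6 arrays fitted alone no gene of any list in this paragraph passed.

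Markers of other cell types gave 0 or 1 call per list, in lists so short that the share of 2.58% over all probe sets leaves room for hardly any. Rbfox3, the neuronal nuclear antigen, was the 1 of 10 neuron markers that fell (-0.32 ± 0.09, adjusted p = 0.03), and it did not pass without any 1 array except control array 1. Gjb6, the astrocyte connexin, was the 1 of 11 astrocyte markers that rose (0.28 ± 0.08, adjusted p = 0.026), with the same dependence on single arrays. Cbln3 of cerebellar granule cells was the 1 of 9 cerebellar markers that fell (-0.40 ± 0.09, adjusted p = 0.0076, lost without sleep-deprived array 1). No marker passed among 11 of microglia, 7 of oligodendrocyte precursors, 9 of choroid plexus, 8 of blood cells, 9 of meninges and 5 of striatum. With the 6 arrays fitted alone no marker in this paragraph passed.

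Undisturbed AKR/J brain at the other times of day gave a scale for these levels. All 3 deprived arrays at ZT6 lay above all 9 controls of ZT0, ZT12 and ZT18 for 74 of the 771 probe sets that rose (9.598%), as they did for 0.575% of all probe sets, and below all 9 for 41 of the 393 that fell (10.433%, against 0.542% of all). Homer1 on 1436387_at was 1 of those that left the range: its deprived arrays read 10.03 to 10.29 and the 9 other controls 7.51 to 9.85. Bdnf read 8.25 to 8.26 in deprived brain against 7.09 to 7.96, Crh 7.56 to 7.81 against 6.64 to 7.21, and Ptgs2 6.04 to 6.66 against 4.87 to 5.91. Npas4, Fosl2 and Egr3 also lay above every other control. Arc (8.47 to 8.59 in deprived brain, against 7.29 to 9.01), Nr4a1 (9.25 to 9.60, against 8.56 to 9.81) and Hspa1b (7.48 to 8.45, against 6.89 to 8.59) stayed inside the range that undisturbed mice covered over the day. Among falling genes Dbp stayed well inside it (9.48 to 9.57 in deprived brain, against 8.81 to 10.74), and Cirbp lay at its lower edge (7.17 to 7.37, against 7.17 to 8.29). Opalin lay at and just below the edge (8.0 to 8.15, against 8.05 to 8.60).

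Whether the response at ZT6 differed from that at the other times was tested as the ZT6 effect minus the mean of the ZT0, ZT12 and ZT18 effects in AKR/J. None of these effects share arrays. Of all probe sets 24 (0.0533%) passed, 20 with a more positive (0.0444%) and 4 with a more negative effect at ZT6 (0.00888%). All 24 had also changed at ZT6 itself, which the contrast favours because the ZT6 effect has the largest weight in it. The immediate early genes Fos (difference 0.99 ± 0.19, adjusted p = 0.013), Npas4 (0.89 ± 0.17, adjusted p = 0.013) and Nr4a1 (0.71 ± 0.15, adjusted p = 0.043) were among them. The effect on Fos was 0.29 at ZT0, 1.57 at ZT6, 1.33 at ZT12 and 0.13 at ZT18, and that on Npas4 was 0.65, 1.46, 0.98 and 0.08 in the same order. Mean Fos levels in that order were 9.33, 8.94, 9.15 and 9.08 in sleep-deprived brain. In controls they were 9.05, 7.37, 7.82 and 8.95, so that both groups were lowest at ZT6. For Homer1 on 1436387_at the difference was 0.76 ± 0.13 (adjusted p = 0.0047), with an effect of 1.19 at ZT0, 2.25 at ZT6, 2.73 at ZT12 and 0.54 at ZT18. The contrast sets ZT6 against a mean that holds the smaller effects of ZT0 and ZT18, and the ZT6 effect was not the highest of the 4. Mean Homer1 levels in order of time were 10.21, 10.16, 10.47 and 10.25 in sleep-deprived brain. They were 9.02, 7.91, 7.74 and 9.71 in controls. Cirbp had a more negative effect at ZT6 (-0.65 ± 0.14, adjusted p = 0.033), with -0.37 at ZT0, -1.08 at ZT6, -0.84 at ZT12 and -0.07 at ZT18, and so had Mrpl15 (-0.69 ± 0.14, adjusted p = 0.022). Xbp1 on 1420011_s_at (0.49 ± 0.10, adjusted p = 0.018), Spred1 on 2 probe sets (0.54 ± 0.11, adjusted p = 0.019 and 0.40 ± 0.09, adjusted p = 0.043) and the noncoding RNA Dleu2 (0.43 ± 0.09, adjusted p = 0.022) were also among them. Btaf1, a remover of TATA-binding protein from DNA, had effects of 0.20, 0.57, 0.23 and -0.01 in order of time (difference 0.43 ± 0.08, adjusted p = 0.0054). Its levels at ZT6 were 9.08, 9.06 and 9.04 in sleep-deprived brain, against 8.57, 8.44 and 8.45 in controls. Erc1, a scaffold of the presynaptic active zone, read 7.72, 7.87 and 7.74 in sleep-deprived brain, against 7.44, 7.35 and 7.22 in controls, and its effect at ZT6 of 0.44 stood against effects of 0.08, 0.10 and -0.08 (difference 0.41 ± 0.08, adjusted p = 0.013). The count of 24 was 1 when AKR/J arrays alone entered the fit, 9 without sleep-deprived array 2, 10 without sleep-deprived array 1 and 12 without control array 2 or 3. Only 4930578G10Rik and Btaf1 among the named genes passed in every fit with 1 array left out.

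**Figure D3:**
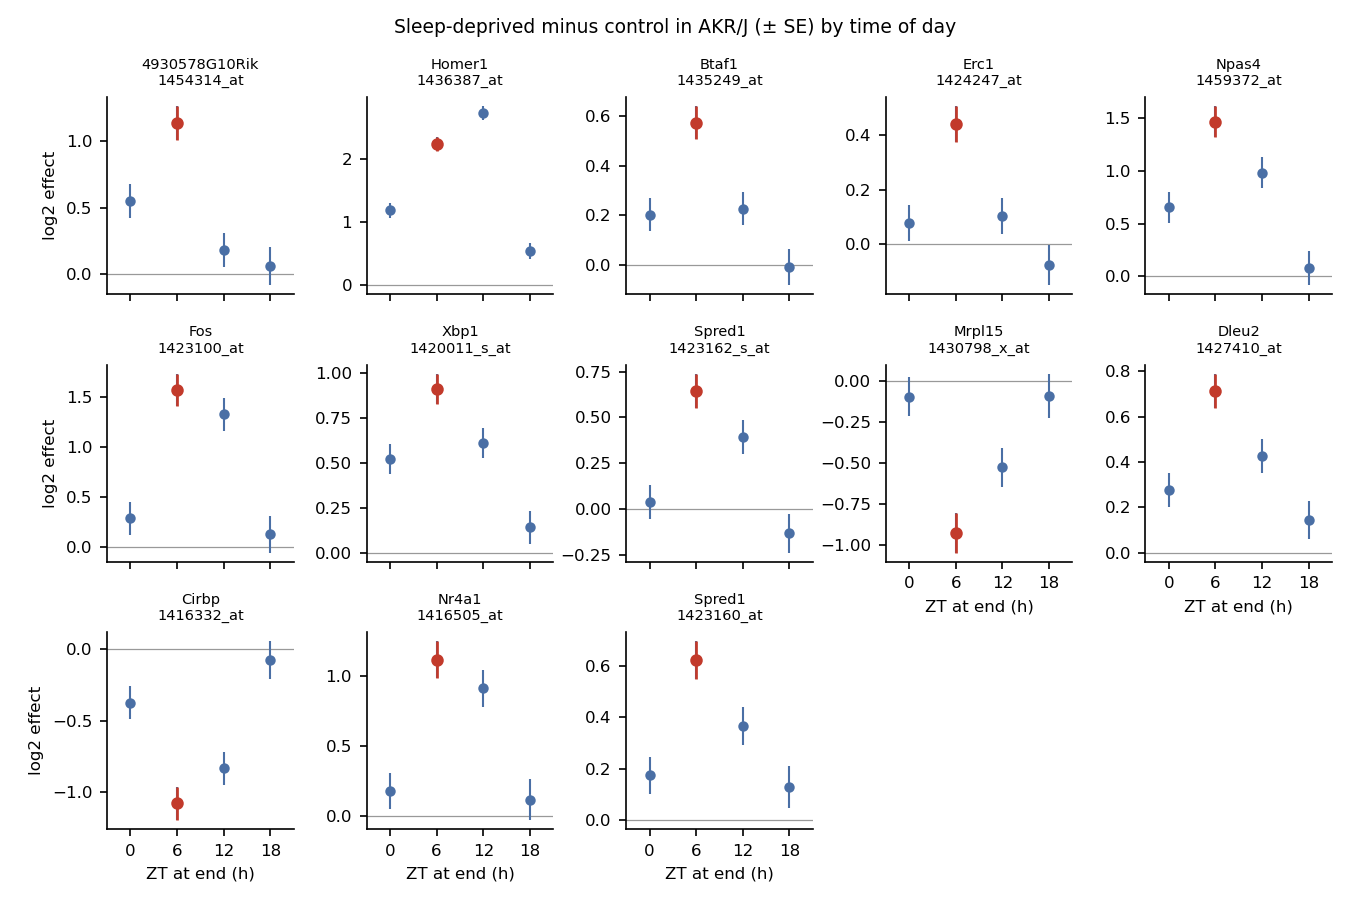
Each panel is 1 of the 13 named probe sets whose ZT6 effect differed from the mean of the other times; the horizontal axis is the time of sacrifice (ZT, h) and the vertical axis the log2 effect of sleep deprivation in AKR/J, with bars of 1 SE, in red for ZT6 and blue for the other times. Effects at ZT18 lie near 0 for most of them, and the Homer1 effect is larger at ZT12 (2.73) than at ZT6 (2.25).

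Set against each time singly, the ZT6 effect differed from that at ZT0 for 9 probe sets (0.02%), from that at ZT12 for 4 (0.00888%) and from that at ZT18 for 49 (0.109%). Arc had the largest difference from ZT0 among the named genes: its effect was 1.68 at ZT6 and 0.16 at ZT0 (difference 1.52 ± 0.26, adjusted p = 0.0035). Homer1 (1.06 ± 0.16, adjusted p = 0.00029), Fos (1.28 ± 0.23, adjusted p = 0.0074), Nr4a1 (0.94 ± 0.19, adjusted p = 0.035), P4ha1, a collagen prolyl hydroxylase subunit (0.58 ± 0.11, adjusted p = 0.0078), and Trim9, a neuronal ubiquitin ligase (0.47 ± 0.08, adjusted p = 0.0035), also rose more at ZT6 than at ZT0. Usp2 on 1417168_a_at (-0.54 ± 0.11, adjusted p = 0.035) and Mrpl15 (-0.83 ± 0.17, adjusted p = 0.043) fell more. These are differences between effects, and a larger effect at ZT6 need not be a higher deprived level. Arc averaged 8.82 at ZT0 and 8.53 at ZT6 in sleep-deprived brain, and 8.66 and 6.85 in controls. Against ZT12 the named genes were 4930578G10Rik and Eif4h on the probe set 1445746_at, whose effect was -0.16 at ZT6 and 0.78 at ZT12 (difference -0.94 ± 0.15, adjusted p = 0.0012). Means of this Eif4h probe set in the AKR/J groups ran from 2.87 to 3.69, near the lowest value of all arrays (2.69). Against ZT18 the largest differences among the named genes were those of Homer1 (1.71 ± 0.17, adjusted p = 1.6e-09), Fos (1.44 ± 0.24, adjusted p = 0.0012), Arc (1.41 ± 0.27, adjusted p = 0.0062) and Npas4 (1.38 ± 0.22, adjusted p = 0.00063), and all 49 were stronger at ZT6. The chaperones Hspa5 (0.74 ± 0.11, adjusted p = 0.00017), Creld2 (0.69 ± 0.13, adjusted p = 0.0036) and Pdia6 (0.56 ± 0.12, adjusted p = 0.022) were in that set. The sleep-deprived group at ZT18 has 2 arrays. No probe set passed at ZT18 on its own, which favours stronger effects at ZT6 among the 49.

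At each time on its own, sleep deprivation in AKR/J changed 97 probe sets at ZT0 (0.215%), 772 at ZT12 (1.71%) and 0 at ZT18, where limma gave 1545 at an unadjusted p under 0.05. Of the 1164 that changed at ZT6, 60 also passed in the same direction at ZT0 (5.15% of the ZT6 set and 61.9% of the ZT0 set) and 392 at ZT12 (33.7% and 50.8%). The signs were those of ZT6 for 1061 of the 1164 at ZT0, for 1097 at ZT12 and for 893 at ZT18. Over all probe sets the sign was shared for 63.3% at ZT0, 59.3% at ZT12 and 54.9% at ZT18. Control array 3 of ZT0, like control array 3 of ZT6, is among the 6 arrays that stood apart on the control probe sets. The ZT0 count was 55 without the 6 and 57 with them as a block. How far these arrays add to the likeness of ZT0 and ZT6 was not tested. Of the 15 largest rises 11 passed at ZT0 and 14 at ZT12, where 0.187% and 0.933% of all probe sets rose. Of the 15 largest falls none passed at ZT0 and 11 at ZT12, where 0.0289% and 0.782% of all fell. Chaperones of the endoplasmic reticulum that rose numbered 9 of 28 at ZT0, 13 at ZT6 and 15 at ZT12. The immediate early factors numbered 4 of 25 at ZT0, 15 at ZT6 and 13 at ZT12, and the effectors 3 of 29 at ZT0, 13 at ZT6 and 16 at ZT12. No gene of any list passed at ZT18. None of these counts tests a difference between times.

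The same 6 h of waking up to ZT6 in C57BL/6J and DBA/2J brain gave an independent set of arrays. It changed 3364 probe sets in C57BL/6J (7.47%) and 1633 in DBA/2J (3.63%), and 293 probe sets (0.651%) changed in 1 direction in all 3 strains, 182 higher and 111 lower. Of the 1164 in AKR/J, 371 passed with the same sign in C57BL/6J (31.9% of the AKR/J set and 11.0% of the C57BL/6J set) and 558 in DBA/2J (47.9% and 34.2%). Over all probe sets the AKR/J effect correlated at 0.0817 with that of C57BL/6J and at 0.434 with that of DBA/2J, given as a description. The C57BL/6J set rests in part on 2 sleep-deprived arrays that are among the 6 standing apart on the control probe sets, and it was 2042 with the 6 as a block. Without the 6 it was 237, in a fit with 1 sleep-deprived C57BL/6J array left, whose spread was taken from the other groups. Of the 15 largest rises in AKR/J 14 passed in C57BL/6J and 14 in DBA/2J, where 2.74% and 1.99% of all probe sets rose. Of the 15 largest falls 11 passed in C57BL/6J and 12 in DBA/2J, where 4.73% and 1.63% of all fell. Homer1 rose by 2.25 in AKR/J, 1.70 in C57BL/6J and 2.39 in DBA/2J, Arc by 1.68, 1.60 and 1.65, and Fos by 1.57, 1.29 and 1.28. Cirbp fell in all of them, by 1.08 in AKR/J, 1.31 in C57BL/6J and 1.43 in DBA/2J.

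Tested as a difference between effects, AKR/J stood apart from the mean of the other strains for 1 probe set (0.00222%), at an unadjusted p under 0.05 for 5389. That count was 7 without control array 2, 7 with a replicate block and 196 with array weights. Against DBA/2J alone it was the same 1 probe set (0.00222%). Against C57BL/6J alone 1031 probe sets passed (2.29%), but the count was 5 without AKR/J control array 3 and 3 without the 6 arrays that stand apart or with them as a block. It was 67 when ZT6 arrays alone entered the fit and 460 to 1566 without any 1 of the other AKR/J arrays. Of the 1031, 137 had also changed in AKR/J at ZT6. Some list members passed in the difference without passing in AKR/J. Among them were Psmd2, with an effect of 0.18 in AKR/J and -0.39 in C57BL/6J, and Pkm, with 0.12 and -0.23. Npas4 and Egr3, of the lists above, and Erc1, which is in none of them, had changed in AKR/J and passed too. The effect on Npas4 was 1.46 in AKR/J and 0.58 in C57BL/6J (difference 0.89 ± 0.21, adjusted p = 0.016), that on Egr3 was 1.08 and 0.55 (0.53 ± 0.13, adjusted p = 0.021), and that on Erc1 was 0.44 and -0.06 (0.50 ± 0.09, adjusted p = 0.0056). All 3 calls were lost without control array 3.

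The 1 probe set was 1454314_at, which carries the clone name 4930578G10Rik, an uncharacterised mouse transcript on chromosome 4. It read 6.50, 6.06 and 6.39 in sleep-deprived AKR/J brain at ZT6, against 5.25, 5.16 and 5.13 in controls, a rise of 1.13 ± 0.13 (adjusted p = 5.7e-09). In C57BL/6J it read 4.47, 4.06 and 4.25 in sleep-deprived brain and 4.14, 4.37 and 4.26 in controls, and in DBA/2J 4.16, 3.88 and 3.99 in sleep-deprived brain and 3.90, 3.89 and 4.03 in controls. The groups overlapped in both of these strains, and every array of them lay below every AKR/J array. Their levels were below the array medians of 5.65 to 5.71, as were those of the AKR/J controls at ZT6. RMA compresses changes of such weak signals, so an effect in these strains could go unseen. The AKR/J effect exceeded the mean effect of both by 1.10 ± 0.16 (adjusted p = 0.00017). It also exceeded the mean of the other times in AKR/J by 0.87 ± 0.15 (adjusted p = 0.0047). At ZT0 the probe set read 5.96, 6.48 and 5.90 in sleep-deprived AKR/J brain, against 5.42, 5.66 and 5.61 in controls (0.55 ± 0.13, adjusted p = 0.04). At ZT12 it read 6.04, 5.80 and 6.05 in sleep-deprived brain and 5.50, 5.71 and 6.13 in controls, and at ZT18 it read 5.60 and 5.92 in sleep-deprived brain and 5.58, 5.82 and 5.68 in controls. The 3 controls of ZT6 were the lowest of all AKR/J arrays, while the deprived arrays of ZT6 overlapped those of ZT0. The call against ZT12 alone (0.95 ± 0.18, adjusted p = 0.026) and that against DBA/2J alone (1.07 ± 0.18, adjusted p = 0.011) were both lost without control array 2 or 3 or sleep-deprived array 1 or 3, and the call against the other times was lost when AKR/J arrays alone entered the fit (adjusted p = 0.22).

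**Figure D4:**
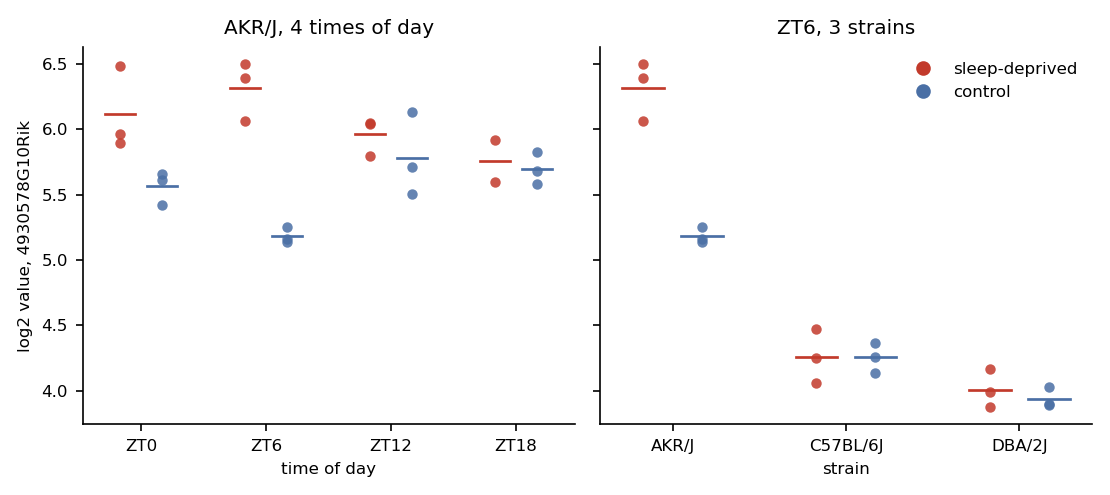
The vertical axis is the log2 level of the probe set 1454314_at (4930578G10Rik) on each array, with AKR/J at the 4 times in the left panel and the 3 strains at ZT6 in the right one; points are arrays, bars are group means, and the sleep-deprived group stands left of its controls. AKR/J at ZT6 shows sleep-deprived arrays of 6.06 to 6.50 and controls of 5.13 to 5.25, and C57BL/6J and DBA/2J lie between 3.88 and 4.47.

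**Figure D5:**
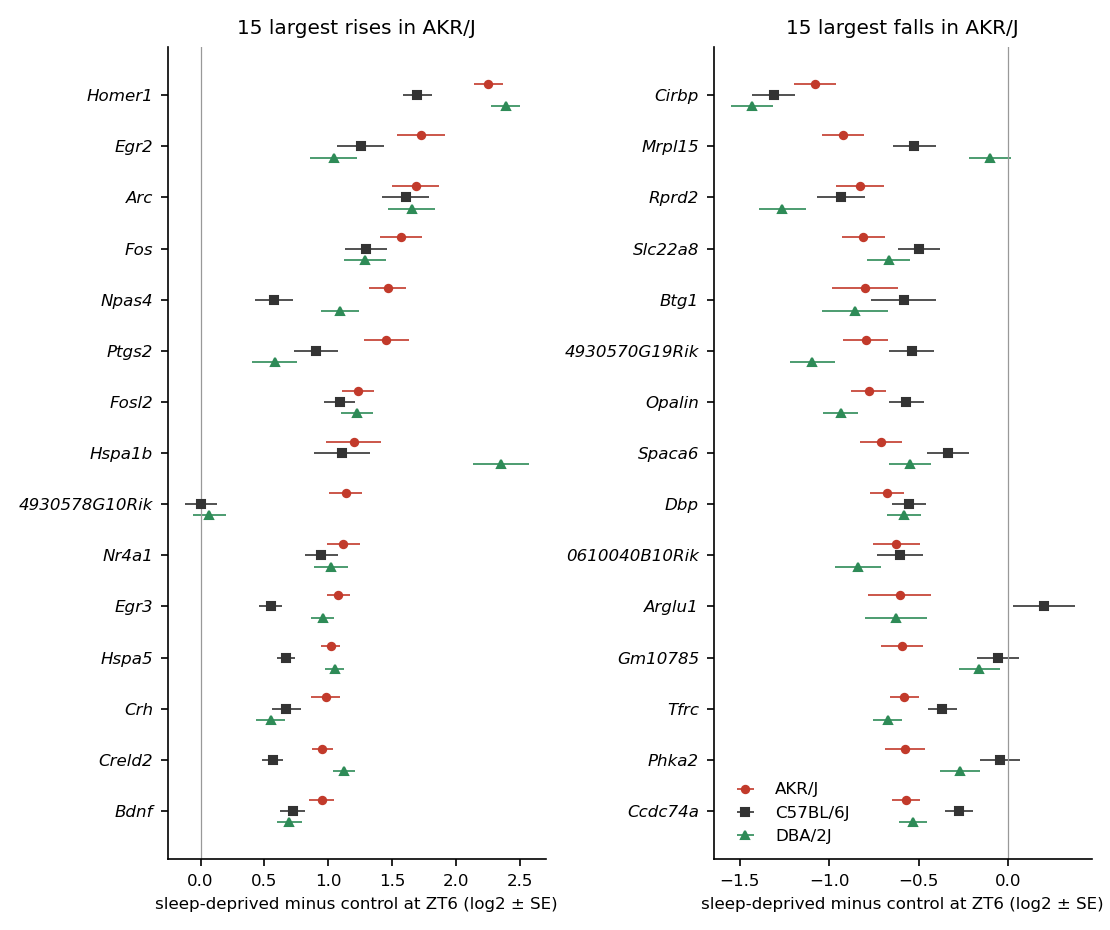
The horizontal axis is the log2 effect of sleep deprivation at ZT6 with bars of 1 SE, for the 15 largest rises and 15 largest falls in AKR/J (rows) in each of the 3 strains (colours). Effects of most genes have 1 sign in the 3 strains, and that of 4930578G10Rik is 1.13 in AKR/J with the other strains near 0.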

How the data were processed

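Whole brain total RNA of male mice was hybridised to Affymetrix arrays, 1 pool of RNA from 3 mice per array. The deposited values are log2 intensities, 1 per probe set and array, and the submitters' processing notes name RMA, the robust multi-array average, as the tool. RMA corrects background, equalises the distributions of the arrays and fits each probe set on a log2 scale; no source used here gives its version or settings. RMA compresses the change of weakly expressed transcripts, and microarrays give relative levels of 1 transcript between samples and no counts, so precision is set by how many arrays there are.

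Of 45101 probe sets 64 controls were left out, and the others were named from the platform annotation (34945 with 1 symbol, 932 with several, 9160 with none). All 71 arrays entered 1 model in limma 3.58.1 (R 4.3.3) that gave each of the 24 groups its own mean (47 residual degrees of freedom), and contrasts were tested with empirical Bayes moderation, two-sided, with Benjamini-Hochberg adjustment over 45037 probe sets and a threshold of 0.05. Errors are SE of the contrast. An exact permutation test of 3 arrays against 3 cannot give a p below 0.1. On simulated data the contrast was tested with known changes, and these values are not used here.

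Genes named are the 15 largest rises and 15 largest falls among probe sets that passed and have 1 symbol, all probe sets of Nptx2, Jph3, Ptgs2 and Homer1, up to 6 members with the smallest p of each of 35 gene lists, and the genes called in a test of a difference between effects (all, or the 10 with the smallest p, and list members). Further list members are named where they passed. Jun, Fosb, Nr4a2, Hspb1, Per1, Mbp, Mag and Hcrt, and the other list members that did not pass, were chosen after their values were seen, as were the members beyond the first 6 that are given by array (Egr1, Vgf, Sgk1 and Sdf2l1 among them). Lists hold 688 genes, 641 of them measured, and each gene counts once, on its probe set with the highest mean over the 71 arrays. The comparison, its lists and its genes were chosen with earlier results of these data known. Promoter windows are those of RefSeq on GRCm38.p6.

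Replicate numbers were not taken as pairs: the deviations of arrays with the same number correlated at -0.171, -0.201 and 0.042. Arrays with different numbers correlated at up to 0.235, and with 3 arrays a group this check cannot exclude a pairing. The alternatives were other sets of arrays in the fit, a replicate block, quantile normalization, centring, filters, array weights, a robust fit, 1 probe set per symbol, a minimum change of 0.25, leaving out each array, and, added after seeing the data, the 6 arrays apart on control probe sets left out or as a block. Figures were drawn with matplotlib 3.10.9 in Python 3.11.15. Some genes are not analysed here.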

Additional observations from a re-analysis of the deposited data

Results flagged for a closer look

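For 13 probe sets with a gene symbol the effect of sleep deprivation in AKR/J at ZT6 differed from the mean effect of the other 3 times by the test of the difference itself. The difference was 0.99 for Fos, 0.89 for Npas4, 0.87 for 4930578G10Rik, 0.76 for Homer1 and 0.71 for Nr4a1. It was 0.54 and 0.40 for the Spred1 probe sets 1423162_s_at and 1423160_at, 0.49 for Xbp1 on 1420011_s_at, 0.43 for Btaf1, 0.43 for Dleu2 and 0.41 for Erc1. It was -0.69 for Mrpl15 and -0.65 for Cirbp. For 4930578G10Rik the AKR/J effect at ZT6 also differed from the mean of C57BL/6J and DBA/2J, by 1.10, through values of 6.06 to 6.50 in sleep-deprived and 5.13 to 5.25 in control AKR/J brain. Control array 3, 1 of the 6 arrays apart on the bacterial control probe sets, enters all of these differences, and without it Homer1, Erc1, Dleu2, Xbp1, Mrpl15 and Spred1 on 1423160_at did not pass.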

How the results depend on the processing

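Every one of the 1164 probe sets that changed at ZT6 kept its direction under each alternative in which it was measured, and the fits differed in how many passed. With the arrays of AKR/J at ZT6 alone 164 passed (124 higher, 40 lower), with AKR/J arrays alone 693 (488, 205; difference between times 1) and with ZT6 arrays alone 714 (481, 233). Array weights gave 2012 (1273, 739), 68 for the times and 196 for the strains. With 1 probe set per symbol 758 passed (475 higher) and 12 for the times. Without the 6 arrays that stand apart on control probe sets 258 were lower. For the strains quantile normalization gave 2, and probe sets above the median level gave 0, since 4930578G10Rik was not among those tested.

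Leaving out 1 array gave 552 to 1018 in all, 377 to 687 higher, 171 to 331 lower, 9 to 20 for the times and 1 to 7 for the strains. The lowest totals came without sleep-deprived array 2 (552), control array 3 (613) and sleep-deprived array 1 (701). The cause of these shifts was not tested beyond the smaller number of arrays.

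A replicate block over all arrays gave 1219 in all, 26 for the times and 7 for the strains, and within the 6 arrays of AKR/J at ZT6 it gave 82 (72 higher, 10 lower). The replicate numbers were not taken as pairs in the main fit.

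Limits: 3 pools a group, whole brain rather than regions, probe sets that match several transcripts, and weak signals that RMA compresses. Control array 3 cannot be judged right or wrong from these data. The spread is borrowed from all 24 groups.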

Other observations

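Trim9, a neuronal ubiquitin ligase, read 9.76, 9.80 and 9.71 in sleep-deprived brain, against 9.06, 9.08 and 9.13 in controls. P4ha1, a subunit of collagen prolyl hydroxylase, read 8.04, 8.10 and 7.94 in sleep-deprived brain, against 7.20, 7.13 and 7.28 in controls. The groups were well apart in both. The noncoding RNA Dleu2 read 6.67, 6.74 and 6.61 in sleep-deprived brain, against 6.08, 6.08 and 5.71 in controls. Brix1, a factor of ribosome assembly, rose by 0.81 ± 0.10 at ZT6, and its effect was 0.40 at ZT0, 0.56 at ZT12 and -0.02 at ZT18. These genes were named because the test of a difference between times called them.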
